A study of Mus musculus with 2 samples.

Results

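Of the 17539 GATA4 peaks of cultured mouse myoblasts, 1854 (10.6%) had their centre within 1 kb of either end of a protein coding gene. The gene ends were those of 21887 protein coding genes listed by RefSeq for GRCm38.p6. The other 15685 peaks lay farther from any such end. Position was the one property used to choose these gene-end peaks, so their number is a description, and their score, width, orientation and sequence were not used.

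The peaks came from chromatin immunoprecipitation sequencing (ChIP-seq) of satellite cell-derived myoblasts, the dividing precursors of skeletal muscle. One arm was precipitated with a cocktail of 3 GATA4 antibodies and the other with control IgG, with 1 library per arm. The cells of both arms came from mice of the strain STOCK Myf5tm1Pas/J, a stock named for a targeted Myf5 allele. Both were grown on collagen in Ham's/F10 with 20% serum and 20 ng/ml bFGF, a fibroblast growth factor. Fixation was in 1% formaldehyde and fragments were sheared to 200 to 500 bp. The sources used here give no age, sex, number of animals or genotype at Myf5. Reads of the IgG library were not analysed here, so no background can be set beside any peak. A peak list holds no expression values, so the labelled cell type could not be checked against marker RNAs.

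GATA4 is a zinc finger transcription factor of the heart, gut, liver and gonads that recognises sequences built on the letters GATA. It acts from promoters, next to the start of transcription, and from distant enhancers, often with partner factors and with FOG cofactors, which bind its zinc fingers. Many mouse promoters are CpG islands, stretches rich in CG dinucleotides that are open in most cell types and often belong to housekeeping genes. Others are poor in CG and are used in few tissues. Factors of the ETS family recognise CCGGAAG or close relatives of it and often act at CpG-island promoters.

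Both kinds of promoter were found among the gene-end peaks. The following windows run from 250 bases before to 50 after a transcription start (RefSeq, GRCm38.p6), 5′ to 3′ on the strand of the gene. They were picked after their letters were seen, to show the range. In the first set, capitals mark GATAA, or its reverse complement TTATC. Ankrd1 (chr19:36119795-36120094, minus strand) encodes an ankyrin repeat protein of striated muscle and had the highest-scoring gene-end peak. Lama2 (chr10:27616893-27617192, minus strand) encodes the laminin chain of the muscle basement membrane. Tnnt2 (chr1:135836084-135836383, plus strand) encodes cardiac troponin T, which embryonic skeletal muscle also makes. Atf3 (chr1:191183284-191183583, minus strand) encodes a stress-induced bZIP factor.
Ankrd1: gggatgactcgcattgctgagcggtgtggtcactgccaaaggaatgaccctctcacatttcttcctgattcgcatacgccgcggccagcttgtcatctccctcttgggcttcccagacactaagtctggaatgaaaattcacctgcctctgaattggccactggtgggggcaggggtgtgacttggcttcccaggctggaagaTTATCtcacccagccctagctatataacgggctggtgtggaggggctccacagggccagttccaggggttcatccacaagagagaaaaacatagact
Lama2: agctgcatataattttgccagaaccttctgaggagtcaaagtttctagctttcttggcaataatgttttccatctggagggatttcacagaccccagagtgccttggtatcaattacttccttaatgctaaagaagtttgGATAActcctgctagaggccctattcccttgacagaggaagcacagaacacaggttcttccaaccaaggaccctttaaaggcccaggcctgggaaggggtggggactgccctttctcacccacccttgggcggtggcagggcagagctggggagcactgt
Tnnt2: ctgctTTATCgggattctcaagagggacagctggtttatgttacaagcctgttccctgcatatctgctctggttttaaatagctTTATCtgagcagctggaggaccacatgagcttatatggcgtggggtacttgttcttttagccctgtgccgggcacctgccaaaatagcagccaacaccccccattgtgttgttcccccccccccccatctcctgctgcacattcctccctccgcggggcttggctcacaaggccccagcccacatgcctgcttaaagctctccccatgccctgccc
Atf3: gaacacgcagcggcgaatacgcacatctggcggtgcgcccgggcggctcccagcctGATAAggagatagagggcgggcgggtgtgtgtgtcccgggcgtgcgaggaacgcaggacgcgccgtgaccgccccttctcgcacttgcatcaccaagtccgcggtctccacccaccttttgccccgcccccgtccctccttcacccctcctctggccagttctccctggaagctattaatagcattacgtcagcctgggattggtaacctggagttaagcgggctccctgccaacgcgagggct

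The Ankrd1, Lama2 and Tnnt2 windows held 7, 1 and 5 CG dinucleotides, while that of Atf3 held 27. Tnnt2 had GATAA at 2 positions and each of the others at 1.

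In the second set, capitals mark CCGGAAG or its reverse complement CTTCCGG. Dnajb6 (chr5:29735648-29735947, plus strand) encodes a chaperone of the HSP40 class. Tcf3 (chr10:80433586-80433885, minus strand) encodes the E proteins that pair with MyoD, and its window surrounds a start slightly inside the gene. Nip7 (chr8:107056627-107056926, plus strand) encodes a ribosome assembly factor.
Dnajb6: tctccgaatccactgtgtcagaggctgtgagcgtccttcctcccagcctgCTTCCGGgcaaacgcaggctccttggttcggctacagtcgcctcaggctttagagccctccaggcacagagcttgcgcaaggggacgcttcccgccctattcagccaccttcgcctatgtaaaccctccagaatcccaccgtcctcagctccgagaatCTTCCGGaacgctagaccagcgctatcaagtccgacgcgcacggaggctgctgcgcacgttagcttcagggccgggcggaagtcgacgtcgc
Tcf3: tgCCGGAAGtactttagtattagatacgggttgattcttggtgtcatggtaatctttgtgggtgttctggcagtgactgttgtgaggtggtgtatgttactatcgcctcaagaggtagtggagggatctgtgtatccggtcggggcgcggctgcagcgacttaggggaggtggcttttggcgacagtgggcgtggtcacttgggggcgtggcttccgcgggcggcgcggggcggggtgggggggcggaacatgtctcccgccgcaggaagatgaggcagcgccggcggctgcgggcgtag
Nip7: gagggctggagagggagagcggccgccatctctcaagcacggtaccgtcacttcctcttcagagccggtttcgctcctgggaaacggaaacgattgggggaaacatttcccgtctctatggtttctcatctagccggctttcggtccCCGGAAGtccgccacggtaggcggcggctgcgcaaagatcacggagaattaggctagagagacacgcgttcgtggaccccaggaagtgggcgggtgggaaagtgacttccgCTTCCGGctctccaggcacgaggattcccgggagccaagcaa

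None of these windows held GATAA, and their CG counts were 26, 25 and 26. The letters CCGGAAG stood at 2 positions in Dnajb6 and in Nip7 and at 1 in Tcf3. Except for that of Tcf3, all of the windows shown lay wholly inside a peak.

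A last window comes from a cluster of genes around Ifnz on chromosome 4, in which several promoters are copies of each other. Gm13287 (chr4:88803004-88803303, plus strand) had a gene-end peak with a score of 443.89, and its window held 25 CG dinucleotides but neither motif.
Gm13287: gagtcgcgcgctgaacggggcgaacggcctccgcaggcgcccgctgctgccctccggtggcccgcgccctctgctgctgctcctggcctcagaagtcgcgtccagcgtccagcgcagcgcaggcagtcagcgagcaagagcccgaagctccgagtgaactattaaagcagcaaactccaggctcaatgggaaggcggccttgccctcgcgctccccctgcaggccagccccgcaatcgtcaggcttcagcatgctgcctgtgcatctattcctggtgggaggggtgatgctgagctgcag

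The windows of Gm13285 and Gm13272 were 100% identical to it, and that of Gm13283, which had no gene-end peak, was 99% identical. The other 11 windows of the cluster were 22.7% to 65% identical to it, compared base by base without gaps. Most of them had a near copy elsewhere in the cluster, and in all 12 of 15 windows were at least 95% identical to another. Gm13290 and Gm13279 had the same window, as did Ifnz, Gm13276 and Gm13277, and the window of Gm13289 was 99.3% identical to its nearest copy. The windows of Gm13271, Gm13286 and Gm13275 had no such copy.

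Gene-end peaks sat mainly at transcription starts. The strand was known for 17492 of the protein coding genes. The genes of unknown strand included all 511 of chromosome 18, which held 43 of the gene-end peaks. By strand, 1235 gene-end peaks (66.6%) were near a start alone and 224 (12.1%) near an end alone. A further 78 (4.21%) were near both, and for 317 (17.1%) the strand was unknown. Of the 1459 peaks at a start alone or an end alone, 84.6% were at a start (exact 95% interval 82.7% to 86.5%, counting error only). Counted by gene, 1464 of 17492 starts (8.37%) had a peak, against 300 ends (1.72%).

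The preference for starts was as large in long genes, whose ends cannot fall in the same window. Of 13412 genes over 5 kb, 1242 (9.26%, interval 8.77% to 9.76%) had a peak at the start and 218 (1.63%, 1.42% to 1.85%) at the end. In 24 of them (0.179%) both ends had one. Among 4080 genes of up to 5 kb, the shares were 5.44% for starts and 2.01% for ends.

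Peaks at starts were centred on the start itself, and peaks at ends were spread over the window. In genes over 5 kb, the median distance to the start was 183 bp over 1267 peak and gene pairs, and 681 pairs (53.7%) lay within 200 bp. Pairs per 100 bp reached 193 in the bin just upstream of the start, against 21 in the outermost upstream bin and 25 in the outermost downstream bin. Upstream of the start lay 681 centres and downstream of it 585 (46.2%), and the median position was 27 bp upstream. At ends, the median distance was 569.5 bp over 226 pairs, and 33 pairs (14.6%) lay within 200 bp. The outermost 200 bp held 80 pairs (6.31%) at starts and 60 pairs (26.5%) at ends. Of the 226 pairs at ends, 134 (59.3%, interval 52.6% to 65.8%) lay downstream of the gene.

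**Figure D1:**
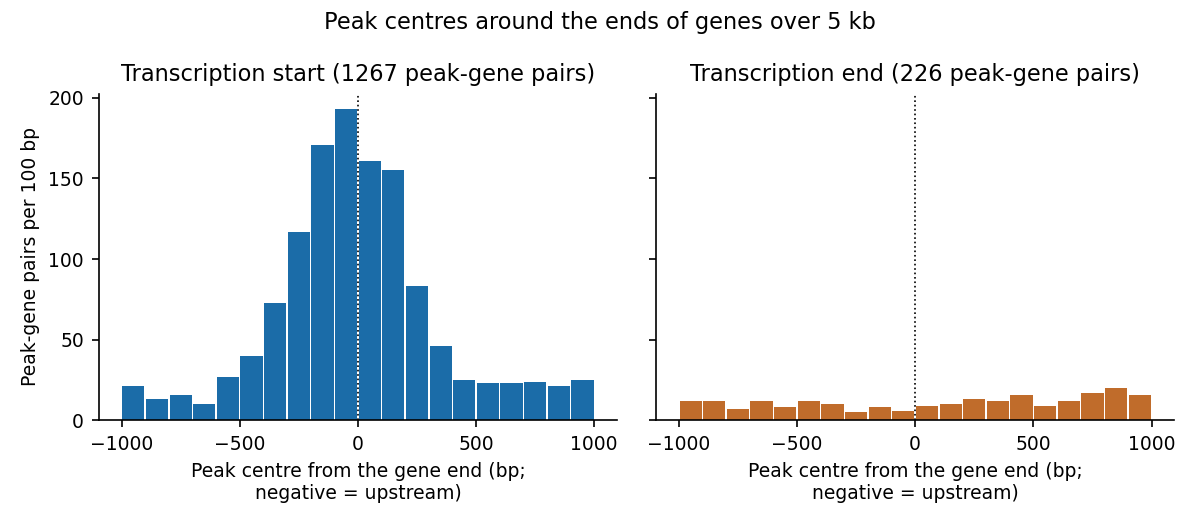
Number of peak and gene pairs (y axis, per 100 bp) by the distance of the peak centre from the gene end (x axis, in bp, negative upstream), for genes over 5 kb. The left panel shows 1267 pairs at transcription starts, which pile up at 0 with 193 pairs in the highest bin, and the right panel shows 226 pairs at transcription ends, with no bin above 20.

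Gene-end peaks had lower scores than the rest of the list. The score is the authors' own MACS value for each peak, and the median was 84.1 in gene-end peaks (quartiles 71.5 and 110.4, range 51.77 to 636.99), against 103 in all other peaks (79.5 and 141, range 50.14 to 861.36). Scores above 200 were found for 63 gene-end peaks (3.40%), against 1493 other peaks (9.52%), where 8.87% of all peaks passed that score. Above the median score of the whole list, 99.3, were 32.6% of gene-end peaks and 52.1% of other peaks. Widths differed little, with medians of 764 bp in gene-end peaks and 742 bp in other peaks. Peaks of 1 library are not replicates, so none of these differences was tested.

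Low scores went with starts more than with ends. Peaks at a start alone had a median of 84.1 (quartiles 71.5 and 110), with 30 of 1235 (2.43%) above 200. Peaks at an end alone had a median of 91.3 (71.7 and 131), with 14 of 224 (6.25%) above 200. The intervals for these shares, for counting error only, were 1.64% to 3.45% for starts and 3.46% to 10.3% for ends. The difference was not tested. Above 300 were 6 peaks at an end alone (2.68%, 0.989% to 5.74%), against 2.21% of the peaks away from gene ends. A further 247 peaks were not gene-end peaks but lay within 1 kb of another annotated start inside a gene, and their median score was 83.1 (quartiles 68.5 and 110).

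**Figure D2:**
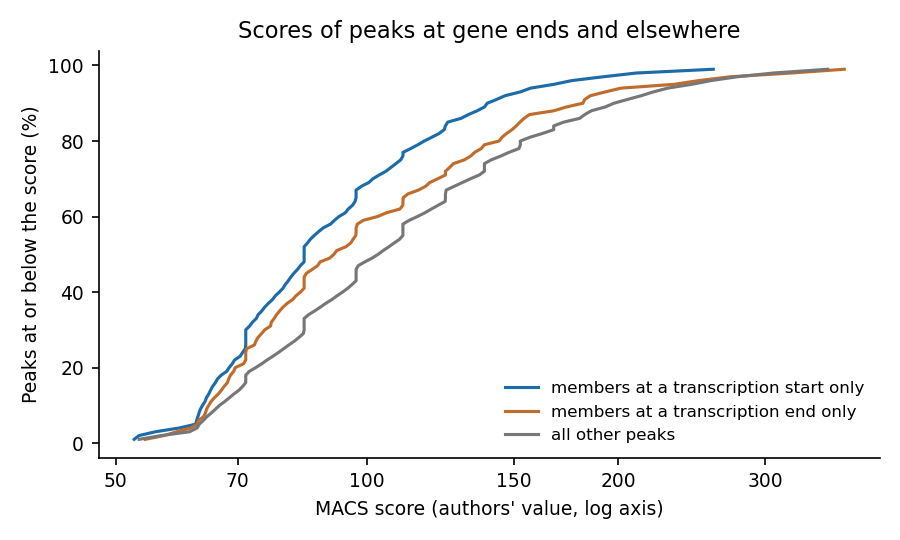
Share of peaks at or below a given score (y axis, percent) against the authors' MACS score (x axis, log scale). The 1235 peaks at a transcription start alone (blue, median 84.1) lie left of the 224 peaks at an end alone (orange, median 91.3) over most of the range. Both lie left of the 15685 other peaks (grey, median 103) in the middle of the range, and the curve of peaks at an end crosses that of the other peaks at both extremes.

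Several scores recurred many times in the list, and the gene-end peaks took more of the lower ones. The score 71.57 was held by 85 gene-end peaks (4.58%) and 3.0% of other peaks, and 84.08 by 4.15% and 4.04%. The score 110.42 was held by 1.94% of gene-end peaks and 3.64% of other peaks, and 124.17 by 1.67% and 2.91%.

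At the edge of the window the peaks just inside, at 999.5 bp, had scores of 71.5, 92.2 and 61.5. Those just outside, at 1001, 1002.5 and 1004 bp, had scores of 71.6, 137 and 97.0. The 200 gene-end peaks at 750 to 1000 bp had a median score of 84.1, and the 161 peaks at 1000 to 1250 bp one of 97.98.

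The highest-scoring gene-end peaks belonged to a muscle gene, to the chromosome 4 cluster and to places within 1 kb of ends of transcription. The peak over the start of Ankrd1, shown above, lay at chr19:36118687-36121442, was 2756 bp wide and scored 637. Of the 20 highest, 5 were at a start alone, 7 at an end alone, 6 near both and 2 at genes of unknown strand. Near ends of transcription stood the peaks of Hjurp (score 406), which encodes a centromere histone chaperone, and of Spata4 (382), a gene of the testis. They were centred 404 and 454 bp before the end, inside the gene. Avpr1a (324), a vasopressin receptor gene, Ube2n (320), a ubiquitin-conjugating enzyme gene, and Mthfd1 (294), a folate enzyme gene, also had theirs near the end. These were centred 427 bp beyond the end in Avpr1a, and 574 and 865 bp before it in Ube2n and Mthfd1. The peak of Gm40469 (345) was centred 835.5 bp before the end. Nvl (294), whose product is an AAA ATPase of the nucleolus, and Serpinb9d (357), a protease inhibitor gene, had theirs near the start. They were centred 92 bp upstream of the start in Nvl and 983 bp into the gene in Serpinb9d. The strand of Ttc32 (355) and of Pbx3 (291), a homeobox gene, was not known. The peaks of Nvl and Mthfd1 were 432 and 482 bp wide, under the lower quartile of 646 bp for gene-end peaks.

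The Ifnz cluster held 7 of the 20. It covers 15 genes at chr4:88754868-88808380, of which 12 had a gene-end peak. All 14 peaks of that interval, widened by 50 kb on each side, were gene-end peaks. Their median score was 295, with quartiles of 170 and 390, and their median width was 1415 bp. The leading ones were at Gm13289 (595), Gm13287 (444), Gm13276 (419), Gm13285 (401), Gm13272 (358), Gm13290 (337) and Gm13288 (321). Ifnz itself, an interferon zeta gene, had a best score of 265. How reads matching several places were handled is not stated in the sources used here. Peaks at promoters with a near copy can therefore not be assigned to a single gene. The window of Gm13275, with a best score of 268, had no near copy among these windows. A comparison without gaps can miss a shifted copy, so the peak of Gm13275 cannot be assigned with certainty either. Without the cluster the median score of gene-end peaks was still 84.1. Gm40363 and Gm40364 (383, shared) and Gm29721 and Gm2808 (299, shared) also lie close together, and their peaks cannot be given to either gene.

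Genes with a peak at each end were few. Among the 24 over 5 kb, Pip5k1c, a lipid kinase gene of focal adhesions, had scores of 136 at the start and 124 at the end, and Ctdnep1, a phosphatase gene of the nuclear envelope, had 112 and 129. Cirbp, which encodes a cold-inducible RNA-binding protein, had 124 at the start and 110 at the end. The end peaks of these 3 genes were also within 1 kb of the start of a neighbour, Cactin, Gabarap and Fam174c. Slc39a13, a zinc transporter gene, had 197 at the start and 98.6 and 86.6 at the end, with no second gene at any of them. Ripor1 (121 and 97.0), the cytoskeletal gene Tagln2 (102 and 96.8) and Abracl (98.6 and 96.2) had similar scores at both ends. Hjurp had 89.1 at the start, far below the 406 at its end. Smtnl1, a smoothelin-like gene of muscle, had 105 at the start and 167 and 76.7 at the end. Rubcn, an autophagy regulator gene, had 97.0 at the start and 95.6 at the end.

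Many peaks were near the ends of more than 1 gene. In all, 317 gene-end peaks were near 2 or more genes, so that the 2207 peak and gene-end pairs exceed the number of peaks, and 96 genes had more than 1 gene-end peak. Starts that lie within 1 kb of a start on the opposite strand had a peak in 355 of 1795 cases (19.8%, interval 18% to 21.7%), against 1109 of 15697 other starts (7.07%, 6.67% to 7.48%). Such a paired start lies within reach of peaks over either partner, so 1 peak can count for both genes. The interval for paired starts counts each start separately and is too narrow for that reason. The 177 peaks near a pair of this kind had a median score of 84.1 (quartiles 71.6 and 107). The other 1136 peaks at starts had the same median (quartiles 70.9 and 110), which is one of the recurring scores.

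Among the highest-scoring shared peaks was one of 220 at Pbld2 and Hnrnph3, an RNA-binding protein gene, at 4.5 and 77.5 bp from their starts. One of 210 was near ends of Aup1 and Htra2, a mitochondrial protease gene. One of 200 was near ends of Ssrp1, a histone chaperone subunit gene, and P2rx3. Nhlrc2 and Dclre1a shared one of 192, Hint3 and Trmt11 one of 183, and Tlcd1 and Nek8 one of 176. The Nip7 promoter shown above shares its peak, of score 170, with Cog8, a Golgi gene on the opposite strand. The peak of score 167 at the end of Eef2 was nearer to the start of Dapk3, at 189.5 bp, than to the end of Eef2, at 288.5 bp.

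Promoters with a peak were richer in CG. The promoter table gave 1 window of 300 bases for each of 15752 of the 17492 genes of known strand. It was the window nearest to the gene end where transcription starts, and genes without a window start within 1 kb of that end were left out. These windows are called all promoters here, and 1385 of the genes had a peak within 1 kb of the start. The observed to expected CpG ratio compares CG dinucleotides with the number that C and G content alone would give. Its median was 0.803 (quartiles 0.654 and 0.916) in promoters with a peak and 0.541 (0.202 and 0.816) in those without. GC content was 60.3% with a peak and 55.7% without. A peak was found at 40 of 3613 promoters with a ratio under 0.2 (1.11%) and at 82 of 2485 from 0.2 to 0.4 (3.30%). The share was 8.32% from 0.4 to 0.6 and 12.7% from 0.6 to 0.8. It was 15.9% from 0.8 to 1 and 14.1% above that. The score did not follow this order, since the median of promoter peaks was between 83.2 and 88.1 in every class.

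**Figure D3:**
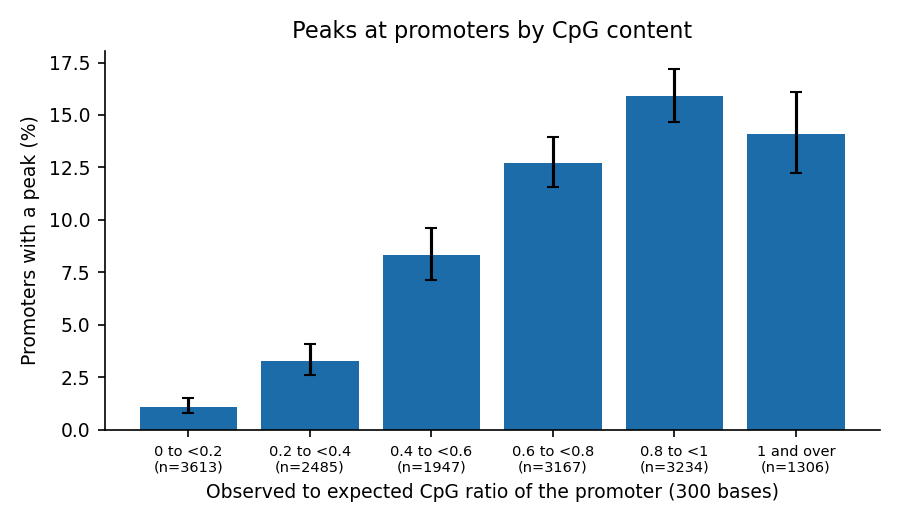
Share of promoters with a peak within 1 kb of the start (y axis, percent, bars with exact 95% intervals) by the observed to expected CpG ratio of the 300-base window (x axis, number of promoters under each class). The share is 1.11% in the class with the lowest ratio and between 12.7% and 15.9% in the 3 classes with ratios of 0.6 or more.

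The short GATA motif was less frequent at promoters with a peak than at promoters in general, but more frequent among CpG-rich ones. GATAA, counted on both strands, stood in 266 of 1385 promoters with a peak (19.2%, interval 17.2% to 21.4%), against 23.0% of all 15752 promoters. AGATAA, each instance of which also holds GATAA, stood in 6.79% of promoters with a peak and 9.92% of all. These letters are rarer where CG is frequent, so promoters were divided at a CpG ratio of 0.6. At or above it GATAA stood in 180 of 1101 promoters with a peak (16.3%, 14.2% to 18.7%), against 12.3% of all such promoters. Under it GATAA stood in 86 of 284 promoters with a peak (30.3%, 25% to 36%), against 33.3% of all such promoters. The direction of the comparison for GATAA was thus opposite in CpG-rich promoters to that in all promoters. AGATAA stood in 5.09% (3.86% to 6.55%) of CpG-rich promoters with a peak, an interval that includes the 4.39% of all such promoters. Under 0.6 AGATAA stood in 13.4% (9.65% to 17.9%) with a peak and 15.2% of all. CG content still varies within each class, and whether the GATAA difference is separate from it was not tested. In promoters whose peak had a score above the median of the list, the share with GATAA was 20.6% (17.0% to 24.7%). These windows cover 300 bases, and peaks extend beyond them.

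The ETS motif was more frequent at promoters with a peak than at promoters in general, and also in each of the 2 CpG classes. CCGGAAG was present in 350 promoters with a peak (25.3%, interval 23.0% to 27.6%), against 12.0% of all promoters. In windows lying wholly inside a peak the share was 29.0% (26.0% to 32.1%). Among CpG-rich promoters it was 28.1% with a peak against 20.1% of all, and among the others 14.4% (10.6% to 19.1%) against 4.34%. The 2 classes do not equalise CG content within them. Under 0.6, 162 of 284 promoters with a peak had ratios from 0.4 to 0.6, against 1947 of 8045 of all. Whether the ETS difference is separate from CG content was not tested. GCCATNTT, the core recognised by YY1, stood in 11.3% of promoters with a peak and 6.77% of all, and in CpG-rich promoters in 12.6% and 9.42%. TGACGTCA, the element of the CREB family, stood in 4.33% and 2.38%, and in CpG-rich promoters in 5.09% (3.86% to 6.55%) and 3.94%.

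For the GC box and the TATA box the comparison depended on CG content. GGGCGG, the GC box, stood in 64.0% of promoters with a peak and 46.7% of all. In CpG-rich promoters it stood in 70.2% (67.4% to 72.9%) with a peak and 74.3% of all, and in CpG-poor ones in 39.8% (34.1% to 45.7%) and 20.3%. TATAAA stood in 7.22% with a peak and 13.7% of all. In CpG-rich promoters it stood in 5.54% with a peak and 5.93% of all, and in CpG-poor ones in 13.7% (9.95% to 18.3%) and 21.1%. CANNTG, the E-box of basic helix-loop-helix factors, stood in 58.0% of promoters with a peak and 68.9% of all, and it was lower with a peak in both classes. The shares were 54.4% (51.4% to 57.4%) with a peak and 58.8% of all in CpG-rich promoters, and 71.8% (66.2% to 77.0%) and 78.5% in CpG-poor ones. CAGCTG, the form of it that MyoD prefers, which every CANNTG count includes, stood in 13.4% and 14.9%. TGANTCA, the AP-1 element, stood in 5.49% with a peak and 7.0% of all, and GGAATG, the TEAD element, in 11.7% and 13.3%. CCAAT stood in 41.9% with a peak and 39.4% of all. All were read on both strands, and a match in the letters is not a binding event.

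Genes of some functional groups had gene-end peaks more often than the 2072 of 21887 protein coding genes (9.47%) that had one in all. Of 25 lists, 19 had a higher share than that and 6 a lower one. No list was tested, and most lists with high shares also have CpG-rich promoters. The median CpG ratio is given beside some of the lists. In the classes of all promoters with ratios of 0.6 or more, 12.7% to 15.9% had a peak within 1 kb of the start. For CpG-rich lists the 9.47% of all genes is therefore a low mark. The lists were drawn up with earlier results of the same peaks known.

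Of 30 myogenic regulators, 9 had a gene-end peak (30.0%, interval 14.7% to 49.4%, median CpG ratio 0.60). Myod1, the gene of the myogenic determination factor MyoD, had the highest score, 227, centred 509.5 bp from the higher-coordinate end of the gene. Tcf3 had 213, centred 46.5 bp from its start. Id3, whose product blocks the pairing of E proteins with MyoD, had 176 at its start, and Six4, a homeobox gene that acts upstream of the myogenic factors, had 118. The E protein genes Tcf4 and Tcf12 had 84.1 and 76.1. The homeobox gene Pitx3 had 79.5, and Tead4 had 62.7. Myf5, Myf6, Myog, Pax3, Pax7 and the Mef2 genes had none within 1 kb.

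The GATA family gave 2 of 8. Zfpm1, the gene of the cofactor FOG1, had a peak of score 79.8 at 203 bp from its start, and Gata6 had one of 68.7. Gata4 itself had no gene-end peak. Of 19 cardiac target genes of GATA4, 2 had one (10.5%), Ankrd1 and Tnnc1, the slow and cardiac troponin C gene, whose peak scored 70.1. Of 14 cardiac transcription factors the only one was Gata6 (7.14%).

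Structural muscle genes had peaks at 6 of 35 (17.1%, interval 6.56% to 33.6%), with a low median CpG ratio of 0.259. Actn3, the alpha-actinin gene of fast fibres, had 118. Myh3, the embryonic myosin heavy chain gene, had 115, centred 808 bp upstream of its start. Tnnt2 had 106, centred 14.5 bp from its start, and Ttn, the gene of the giant spring protein titin, had 84.1. Of 20 genes of the satellite cell surface and quiescence, 5 had a peak (25%). These were the adhesion genes Ncam1 (91.5) and Cdh2 (83.3), the forkhead gene Foxo3 (82.4), the syndecan gene Sdc4 (73.5) and the Notch target Hes1 (73.0), all under 99.3.

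Genes of the cell's contacts and of the response to stretch and serum had some of the highest shares. Of 17 target genes of YAP and TEAD, the effectors of the Hippo pathway, 7 had a peak (41.2%, interval 18.4% to 67.1%, CpG ratio 0.772). Besides Ankrd1 they were led by Ccn2 (158) and Ccn1 (144), which encode secreted matricellular proteins, and Amotl2 (140), an angiomotin gene. Of 29 cytoskeleton and adhesion genes 11 had one (37.9%, 20.7% to 57.7%), led by Tln1 (142), the talin gene, whose start is shared with Creb3. Vim (124), the vimentin gene, Itgb1 (118), the beta 1 integrin gene, and Tagln2 (102) followed. AP-1 and immediate early genes gave 7 of 23 (30.4%, 13.2% to 52.9%), with Atf3 (217), Fosl2 (146), the antiproliferative gene Btg2 (115) and Maff (97.0) highest. Fos, Jun and Egr1 had none. Matrix genes gave 6 of 30 (20.0%), with Lama2 (280), the tenascin gene Tnc (121), the periostin gene Postn (100) and the fibronectin gene Fn1 (80.4) highest. Col4a1 and Col4a2 shared 1 peak of score 71.6 between their starts.

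Housekeeping genes with CpG-island promoters were also above the share of all genes. Of 25 heat shock and chaperone genes 10 had a peak (40.0%, interval 21.1% to 61.3%, CpG ratio 0.849), led by Dnajb6 (264), Hsph1 (135), Cct3 (134, shared with Tsacc) and Hspa1a (101, shared with Hspa1l). Translation factors gave 9 of 32 (28.1%), with Eef1a1 at 149 and Eif5b at 145. Ribosomal protein genes gave 19 of 79 (24.1%, 15.1% to 35.0%, CpG ratio 0.877), led by Rps12 (205), Rps15a (149, at its end), Rps15 (131) and Rpl3 (119). Splicing and RNA-binding protein genes gave 8 of 34 (23.5%), led by Rbm39 (226). Nuclear genes of oxidative phosphorylation gave 17 of 76 (22.4%, 13.6% to 33.4%), led by Atp5g2 (145) and Ndufa9 (124), and genes of the proteasome and ubiquitin 8 of 41 (19.5%), among them Psmb2 (124) and Psmd5 (122).

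Histone genes of the large clusters had a peak in 26 of 63 cases (41.3%, interval 29.0% to 54.4%). These 26 genes rested on 20 peaks, since the genes are short and close together and 1 peak can lie near several ends. The interval counts each gene separately and is too narrow for that reason. Scores were moderate, up to 133 at H2ac19, with 129 at H4c17 and 122 at the peak shared by H3c14 and H2ac18. Histone copies are alike in sequence, so the assignment to single copies is uncertain.

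Signalling and cell cycle genes were closer to the share of all genes. The TGF-beta and BMP list gave 4 of 27 (14.8%), and all 4 were Smad genes, the intracellular transducers and inhibitors of the pathway. Smad1 had 182 at its end, Smad3 139 and Smad6 108 at their starts, and Smad7 93.7. Of 32 cell cycle genes 3 had one (9.38%). They were the CDK inhibitor genes Cdkn2b (108) and Cdkn1b (69.2) and Pcna (74.8), whose peak lies nearer to the start of Cds2. The cyclin genes of the list had none. Brown fat regulators gave 2 of 16 (12.5%), Tfam (72.8) and Zfp516 (64.2).

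Keratin and olfactory receptor genes, with CpG-poor promoters, had gene-end peaks less often than the 9.47% of all genes. None of 18 liver and gut genes had one (exact upper bound 18.5%), none of 19 blood, immune and endothelial markers (17.6%) and none of 53 keratin genes (6.72%). The bounds for the liver and blood lists include 9.47%. Of 1110 olfactory receptor genes 3 did (0.270%, interval 0.0558% to 0.788%), namely Olfr9 (144), Olfr70 (130) and Olfr1033 (71.2), and the first 2 were at the end of the gene. The median CpG ratio was 0.198 in the liver and gut list, 0.289 in the blood list, 0.270 in the keratin list and 0.106 in the olfactory list. Of all promoters with a ratio from 0.2 to 0.4, 3.30% had a peak within 1 kb of the start. The keratin bound of 6.72% includes that share. Under a ratio of 0.2 the share was 1.11%, which lies above the olfactory interval. Neuronal genes, with a ratio of 0.832, had a peak at 2 of 19 (10.5%), above the share of all genes, Tubb3 (69.2) and Map2 (62.5), both among the lower scores.

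**Figure D4:**
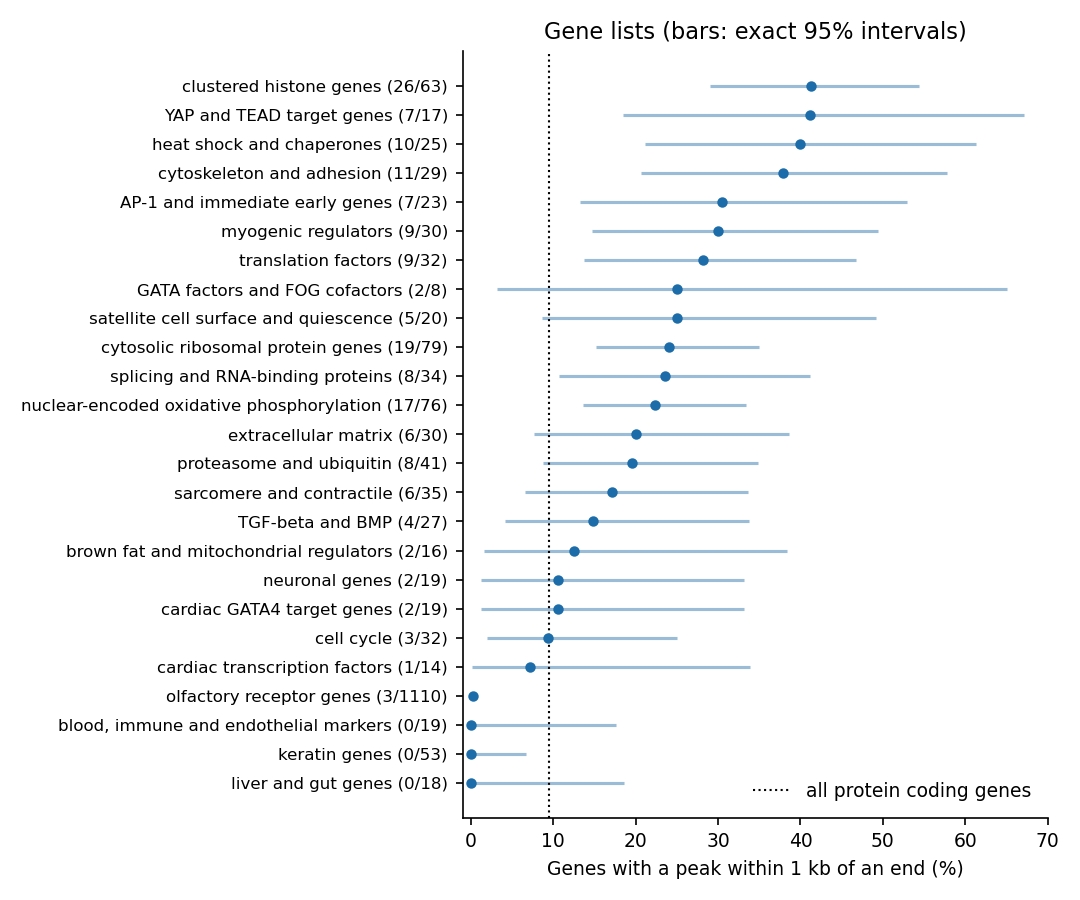
Share of the genes of each list with a peak within 1 kb of an end (x axis, percent, points with exact 95% intervals), with the number of genes beside each name. The dotted line marks the 9.47% of all protein coding genes, and intervals of lists with few genes are wide, as in the GATA list with 2 of 8.

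The low score of gene-end peaks was found on every chromosome. Their median was under that of the chromosome's other peaks on 19 of 19 autosomes and on X and Y, although Y had 1 gene-end peak. On chromosome 10 the medians were 96.9 for gene-end peaks and 110.4 for other peaks, and on chromosome 14 they were 76.6 and 98.4. Chromosome 10 also had the largest share of its genes with a peak, 173 of 1001 (17.3%, interval 15.0% to 19.8%), against 9.94% over all autosomes. Chromosome 14 had the smallest share of the autosomes, 48 of 851 (5.64%, 4.19% to 7.41%). On the X chromosome 17 of 966 genes had one (1.76%, 1.03% to 2.80%). Other peaks varied in the same direction, with 148 per 100 genes on chromosome 10, 43.6 on chromosome 14 and 19.2 on X, against 74.99 over all autosomes. Gene-end peaks therefore made up similar shares of the peaks of chromosome 10 (9.66%), of chromosome 14 (9.73%) and of X (8.42%, 4.98% to 13.1%). The share was 10.6% over all autosomes, with a maximum of 18.4% on chromosome 11 and a minimum among them of 7.57% on chromosome 15.

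**Figure D5:**
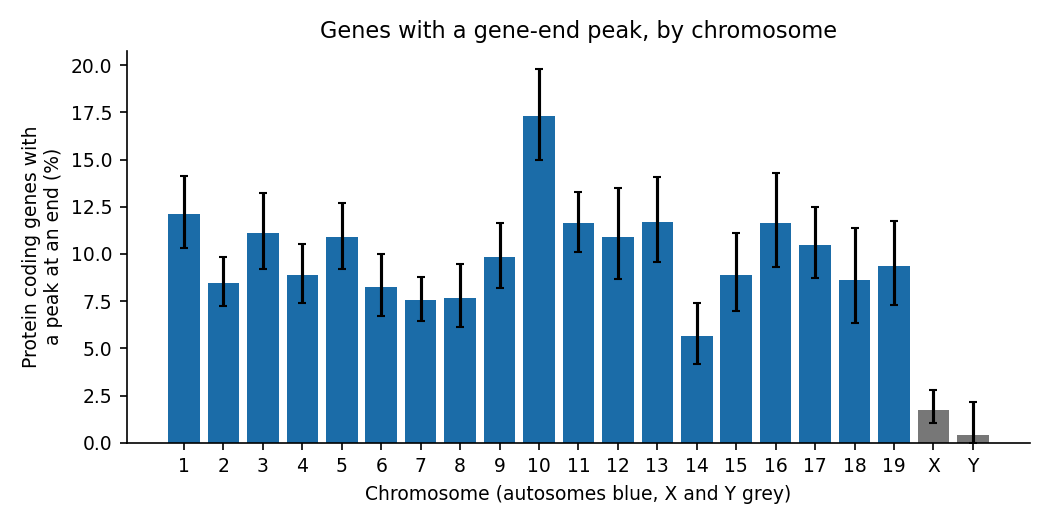
Share of the protein coding genes of each chromosome with a peak within 1 kb of an end (y axis, percent, bars with exact 95% intervals; autosomes blue, X and Y grey). Chromosome 10 stands highest at 17.3%, chromosome 14 is the lowest autosome at 5.64%, and X is at 1.76%.

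Genes with a gene-end peak often had more peaks nearby. A further peak that was not at a gene end lay within 10 kb of an end in 625 of 2072 such genes (30.2%, interval 28.2% to 32.2%), against 3126 of 19815 other protein coding genes (15.8%, 15.3% to 16.3%). From peak to peak the spacing was nonetheless wider, with a median of 22.95 kb from a gene-end peak to the nearest other peak and 18.3 kb for other peaks. In addition, 179 gene-end peaks (9.65%) were within 1 kb of an end of a lncRNA gene, and such a peak cannot be given to either gene. That share was not counted for other peaks, so whether 9.65% is high or low for this list is unknown.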

How the data were processed

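Peak calling used MACS in Galaxy, per the file header. CASAVA 1.8, Bowtie and the build GRCm38 (mm10) are named, without their roles, per the submitters' processing notes. The authors deposited, for each peak, its position and a MACS score. The sources used here give no versions of MACS or Bowtie, no read filter or duplicate rule, no threshold, and not whether IgG served as the control. Read depth is unknown.

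Starts were converted to 1-based. A peak was assigned by its centre to gene ends of the RefSeq table (GRCm38.p6). Strand came from the RefSeq promoter table. Motifs and the CpG ratio were counted in 1 window per gene, for genes with a window start within 1 kb of their outer start. Genome sequence was not used. Shares have exact (Clopper-Pearson) 95% intervals, for counting error only, which take each gene or peak as independent. With 1 library per arm nothing was tested. The assignment of peaks to gene ends by distance was checked on simulated peaks, and the motif and CpG counts on short known sequences. Other counting steps were not checked in this way.

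Named are the 20 highest-scoring gene-end peaks, up to 4 genes per list by score, all myogenic and GATA genes with a peak, and up to 10 genes with peaks at both ends and 10 shared peaks. Other names were added after their values were seen. Some items that this rule names are not reported here. All 1850 symbols of the 25 lists matched. Members, lists and motifs were chosen with earlier results of these data known. Python 3.11.15, pandas 2.3.3 and SciPy 1.17.1 were used.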

Additional observations from a re-analysis of the deposited data

How the results depend on the processing

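No paired analysis was possible because each arm had 1 library. The median score of gene-end peaks differed from that of all other peaks by -19.06. It differed by -20.56 from peaks over 10 kb from any gene end, and with peaks at a transcription end alone as the gene-end peaks the difference was -11.87. Windows of 500 bp and 2 kb gave -18.35 and -17.25. GATAA stood in 19.2% of promoters with a peak, and in 16.3% at a CpG ratio of at least 0.6 and 30.3% under 0.6. The cause was not tested. The number of gene-end peaks was 1453 at 500 bp, 2472 at 2 kb, 1352 by overlap, 1829 with NM genes alone and 1840 without the Ifnz cluster. Of the 25 lists, 19 were above the share of all genes, 18 at 500 bp and at 2 kb, 15 with peaks above the median score, 19 without chromosome 10 and 20 at starts alone. Lists that changed side numbered 3, 3, 4, 2 and 1 in that order. Cardiac GATA4 targets fell below all genes at 500 bp (5.26% against 7.50%) and 2 kb (10.5% against 12.1%), and neuronal genes at 2 kb (10.5%). Brown fat regulators did at 500 bp (6.25%) and without chromosome 10 (6.67% against 9.09%), and cell cycle genes moved above at 500 bp, at 2 kb, without chromosome 10 and at starts. With peaks above the median score, satellite cell, GATA, brown fat and neuronal genes had 0 against 3.14%. Runs without the Ifnz cluster, by kind of end, by CpG ratio and by full cover of the promoter were added after seeing the data. One library and an unknown depth limit every share to this list of peaks.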
